A study of Caenorhabditis elegans with 6 samples.

Results

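The genes described here are the nuclear hormone receptors of Caenorhabditis elegans whose gene symbol begins with nhr, other than nhr-23, nhr-25, nhr-41, nhr-67, nhr-73 and nhr-85. A gene was taken where a probe set of the array carried its symbol and no other. This gave 249 of the 17118 genes measured, through 285 probe sets, and each gene was read by its brightest probe set, taken over the mean of the 6 arrays. The questions asked were which of these receptors gave signal in L2 larvae and which differed with nhr-23 RNAi or with the replicate number.

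Signal was read on 6 single-colour Affymetrix arrays, 3 for nhr-23 RNAi and 3 for the control. Larvae of the N2 strain were plated as synchronized L1 on HT115, an Escherichia coli strain used for feeding RNAi because it accumulates double-stranded RNA (dsRNA), and were held for 21 hours at 20 C on 2% agarose. For the RNAi arrays the bacteria carried the plasmid L4440 with an insert from the ligand-binding domain of nhr-23, and for the control arrays they carried L4440 without an insert, which the labels say makes a short nonspecific dsRNA. Each array was made from 4 ug of total RNA of whole larvae, so fewer cells of a type and less RNA per cell cannot be told apart. The titles call the samples biological replicates and say no more about separate cultures, so p-values measure the spread between these 6 samples.

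Nuclear hormone receptors are transcription factors with a zinc-finger DNA-binding domain and, in most, a ligand-binding domain that can bind a lipid-soluble molecule. Nematodes carry far more of them than insects or vertebrates, and most C. elegans members descend from an ancestor related to the vertebrate receptor HNF4. The few with known roles act in fat metabolism, vitamin B12 and propionate metabolism, detoxification and development, and the ligands of most are unknown. The receptor targeted by the RNAi, NHR-23, is needed for molting.

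The targeted gene was read by a pair of probe sets that went opposite ways. The brighter one gave log2 signals of 7.67, 7.47 and 7.52 in replicates 1, 2 and 3 of the arrays labelled nhr-23 RNAi and 8.27, 8.12 and 7.74 in the control arrays. The dimmer one gave 8.76, 9.61 and 8.76 in the arrays labelled nhr-23 RNAi and 6.60, 6.56 and 5.80 in the control arrays. These names go by the mean over the 6 arrays. In the RNAi-labelled arrays the dimmer probe set had a mean of 9.04 log2, against 7.55 log2 for the brighter one. In the control arrays the means were 6.32 and 8.04 log2. The differences were 2.72 log2 for the dimmer one and -0.49 log2 for the brighter one. Neither passed by limma (adjusted p = 0.993 for both), and in the fit with a block for replicate number the dimmer one did (limma adjusted p = 0.037, against 0.406 for the brighter). All directions that follow hold for the arrays under their labels. Array medians lay between 5.13 and 5.18 log2, and correlations between arrays lay between 0.985 and 0.997. Of 8 intestine markers 7, of 6 epidermis markers 5 and of 4 body wall muscle markers 3 were above the chemoreceptor level defined next, while 2 of 5 measured yolk protein genes, which mark the adult intestine, were. So were 4 of 5 neuron, 4 of 4 pharyngeal muscle and 4 of 5 germ line markers, and 14 of 33 sperm genes.

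The deposited table holds no detection calls. The level used instead was the 95th percentile, in each array, of 1237 chemoreceptor genes, each of which is active in few cells of a larva. It lay between 4.54 and 4.67 log2. Above it in all 6 arrays were 108 of the 249 receptors (43.4%), against 53.6% of all 17118 genes. Another 118 receptors (47.4%) were above it in 0 arrays and 23 in 1 to 5 arrays. The median signal over the 6 arrays was 4.50 log2 for the receptors, 5.14 log2 for all genes and 3.33 log2 for the chemoreceptor genes, and 54 receptors lay at or under this last value. Only 24 receptors (9.64%) had a mean over 7 log2, against 26.9% of all genes. The count of 108 follows from the level chosen. It was 70 with the 99th percentile of the chemoreceptors and 46 with the 95th percentile of the genes for major sperm protein, which are made in sperm and not in L2 larvae. Of 33 sperm genes 14 were above the chemoreceptor level, with the highest mean at 6.04 log2. Being above it therefore does not by itself show that a gene is expressed.

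**Figure D1:**
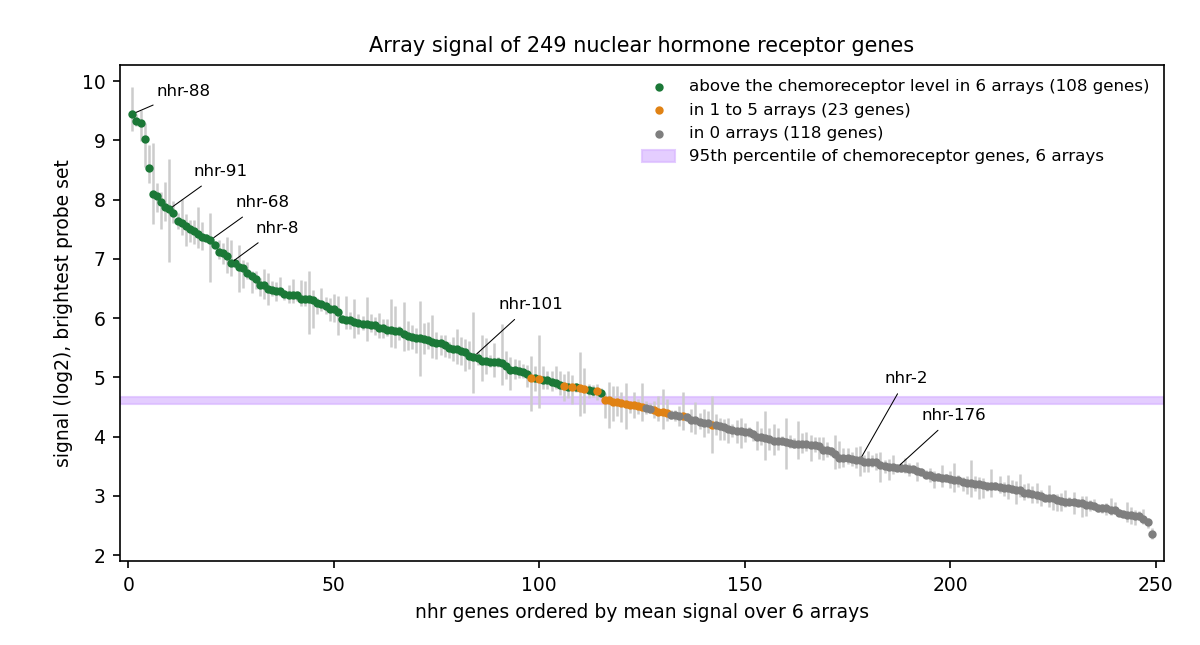
The x axis orders the 249 receptor genes by mean signal and the y axis gives the log2 signal of the brightest probe set; points are means over 6 arrays, grey bars run from the lowest to the highest array, and the violet band spans the chemoreceptor level of the 6 arrays. The 108 green genes lie above the level in 6 arrays, the 23 orange genes in 1 to 5 and the 118 grey genes in 0, with nhr-88 at 9.45 and nhr-176 at 3.47 log2.

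Probe sets differ in how strongly they bind their target, so the order of genes by signal is not an order of transcript amount. With that limit, 7 receptors had a mean over 8 log2. They were nhr-88 (9.45), nhr-49 (9.33), nhr-31 (9.29), nhr-46 (9.02), nhr-34 (8.53), nhr-3 (8.10) and nhr-100 (8.07). The next were nhr-97 (7.96), nhr-10 (7.88), nhr-91 (7.84), nhr-40 (7.77), nhr-71 (7.64), nhr-1 (7.60), nhr-43 (7.56) and nhr-4 (7.50). A signal of this kind depends on the probe set taken: the other 3 probe sets of nhr-88 had means of 6.93, 5.28 and 4.99 log2, while the second probe sets of nhr-46 and nhr-34 had 8.26 and 7.92 log2. Among these 15 receptors the widest spread over arrays was that of nhr-91, which is described with the replicate numbers. The narrowest was that of nhr-49, at 9.34, 9.40 and 9.26 log2 in the RNAi-labelled arrays and 9.25, 9.27 and 9.45 log2 in the control arrays.

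Of the receptors known for fat and energy metabolism, 9 of 10 listed were measured and 7 were above the level in all 6 arrays. Beside nhr-49, which regulates fatty acid oxidation and desaturation, these were nhr-66, a partner of NHR-49 in sphingolipid and lipid remodelling genes, at 7.48 log2, nhr-13 at 7.10 log2 and nhr-80 at 6.40 log2, which both act on fatty acid desaturases with NHR-49. The others were nhr-86 (6.93 log2), which senses a bacterial phenazine product in the intestine, nhr-64 (6.40 log2) and nhr-28 (5.90 log2). The receptors nhr-69 and nhr-76 were above the level in 4 and 5 arrays, at means of 4.84 and 4.81 log2. NHR-69 acts in insulin-like peptide secretion and NHR-76 in the fat loss that serotonin evokes.

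All 3 receptors of propionate, vitamin B12 and methionine metabolism were above the level. The receptors NHR-10 and NHR-68 switch on an alternative propionate breakdown pathway when vitamin B12 is low, and their genes read 7.88 and 7.32 log2. The gene of NHR-114, which protects the germ line when dietary methionine and vitamin B12 are short, read 7.05 log2. Of 6 receptors of xenobiotic, iron, hypoxia and osmotic responses, 5 were above it. They were nhr-31 (9.29 log2), which acts in the excretory canal on the genes of the vacuolar proton pump, nhr-14 (7.24 log2), which acts in iron uptake, nhr-8 (6.93 log2), which acts in xenobiotic resistance and cholesterol balance, its close relative nhr-48 (6.41 log2) and the hypoxia-induced gene nhr-57 (5.97 log2). The receptor nhr-176, which acts in the breakdown of the drug thiabendazole, was above it in 0 arrays, at 3.47 log2.

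Among the 7 conserved or developmental receptors, 6 were above the level. They were nhr-91 (7.84 log2), the counterpart of the vertebrate germ cell nuclear factor, nhr-40 (7.77 log2), which acts in embryonic muscle, nhr-6 (6.84 log2), the NR4A receptor needed for the spermatheca, and nhr-35 (6.66 log2), nhr-47 (6.50 log2) and nhr-60 (5.25 log2). The receptor nhr-2, known from the early embryo, was above it in 0 arrays. Its brightest probe set gave 3.84, 3.85 and 3.34 log2 in the RNAi-labelled arrays and 3.74, 3.44 and 3.42 log2 in the control arrays, and its other 3 probe sets had means of 3.52, 2.76 and 2.71 log2. Its groups overlapped.

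Receptors annotated as pseudogenes were nearly all dim. Of 11 such genes 1 was above the level, nhr-144 at 6.39 log2, against 107 of 238 protein-coding receptors. Many receptor genes lie side by side in the genome. By the gene order of the WBcel235 assembly, 107 receptors fell into 34 runs of directly neighbouring members, and 36 of them were above the level (33.6%, median 4.28 log2). Of the 142 receptors with no member next to them, 72 were (50.7%, median 4.83 log2). The longest run held 8 genes, nhr-186, nhr-188, nhr-189, nhr-187, nhr-157, nhr-158, nhr-159 and nhr-124, of which 3 were above the level, with means between 3.04 and 5.58 log2. A run of 4, nhr-26, nhr-215, nhr-214 and nhr-272, had 0 above it and means between 2.84 and 3.26 log2. No test was made of these shares, and neighbouring copies can share sequence that a probe set reads from more than 1 gene. For 25 receptors the probe set used is of a type (_s_at or _x_at) that may read more than 1 transcript.

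For 30 receptors with several probe sets the choice of probe set could be examined. The gap between the brightest and the next had a median of 0.58 log2 and was over 1 log2 in 9 receptors, with the largest, 2.73 log2, in nhr-47. The difference between nhr-23 RNAi and control had the same sign in both probe sets for 19 of 30, and the difference of replicate 3 from the other numbers for 25 of 30.

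The comparison of nhr-23 RNAi with control asked which other receptors differ when the nhr-23 transcript is targeted. No receptor passed. The limma test called 0 of 249 at an adjusted p of 0.05, over all 22548 probe sets, of which 0% were called. The smallest adjusted p was 0.993. At an unadjusted limma p under 0.05 there were 6 receptors (2.41%), 2 higher and 4 lower, against 3.69% of all probe sets. With the replicate number as a block, 0 receptors passed (smallest limma adjusted p = 0.549), against 0.00887% of all probe sets, and 8 receptors (3.21%) had an unadjusted p under 0.05, against 5.96%.

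The log2 differences, nhr-23 RNAi minus control, ran from -0.43 for nhr-91 to 0.27 for nhr-9. Their median was 0.01, against 0.02 for all genes. Higher in the RNAi-labelled arrays were 138 receptors (55.4%) and lower were 111 (44.6%), against 55.7% and 44.3% of all genes. A difference of at least 1.2-fold was seen in 4 receptors (1.61%), against 5.84% of all genes. RNAi-labelled and control values did not overlap in 22 receptors, 10 higher and 12 lower (8.84%), against 9.48% of all genes, 6.49% higher and 2.99% lower. In all 3 same-number pairs 36 receptors were higher (14.5%) and 36 lower (14.5%), against 16.8% and 10.7% of all genes. The standard error of a difference had a median of 0.10 log2 and ran from 0.06 to 0.46, so differences of the size seen here were mostly within the error of 3 arrays against 3. With the replicate block the standard error had a median of 0.09 log2 and ran from 0.08 to 0.25.

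**Figure D2:**
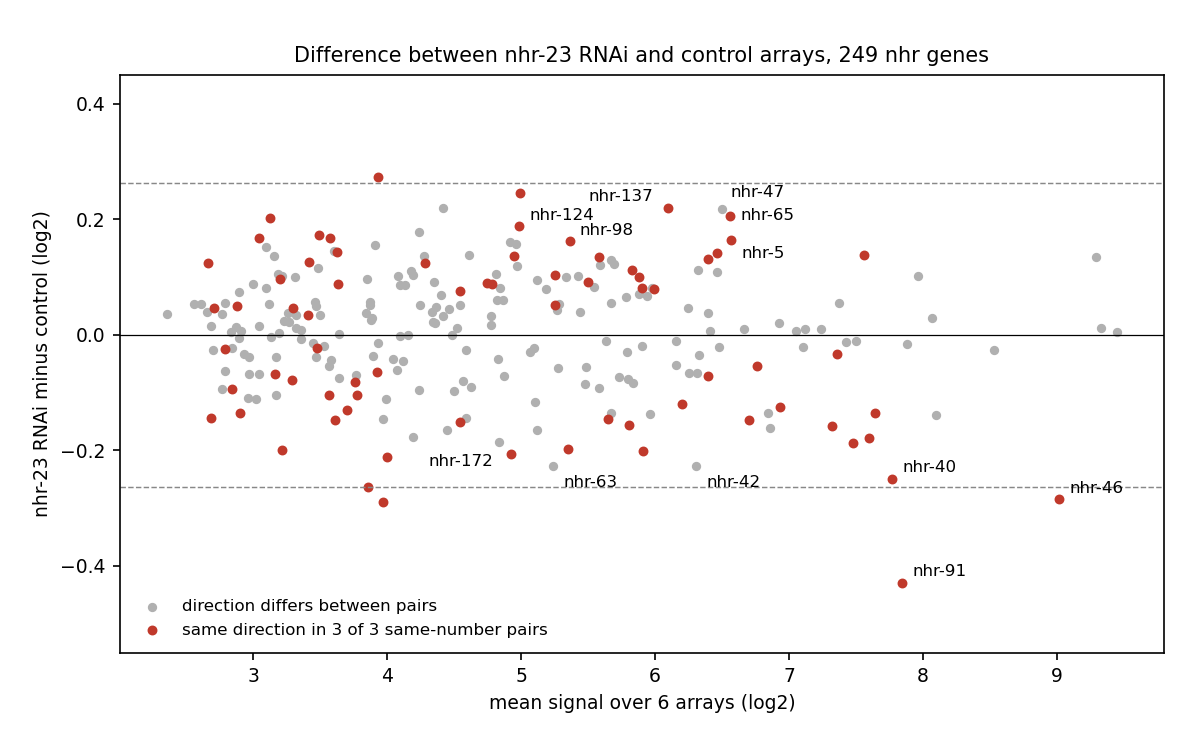
The x axis gives the mean signal over 6 arrays and the y axis the log2 difference, nhr-23 RNAi minus control, for 249 receptor genes; red points have the same direction in 3 of 3 same-number pairs, and dashed lines mark 1.2-fold. Differences run from -0.43 (nhr-91) to 0.27, and 4 genes lie past the lines.

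Among the receptors above the level, the 6 most negative differences belonged to nhr-91, nhr-46, nhr-40, nhr-42, nhr-63 and nhr-172, and none passed. The nhr-91 signal was 8.02, 7.92 and 6.94 log2 in replicates 1, 2 and 3 of the RNAi-labelled arrays and 8.69, 8.35 and 7.13 log2 in the control arrays. Both replicate 3 arrays were low and the groups overlapped. The means were 7.63 ± 0.60 and 8.06 ± 0.82 log2 (SD, n = 3 each), 1.35-fold lower (log2 difference -0.43, SE 0.46, limma adjusted p = 0.993). The same-number pairs 1, 2 and 3 gave -0.67, -0.43 and -0.19 log2. The block gave an SE of 0.11 log2, an unadjusted limma p of 0.00726 and an adjusted p of 0.549. Leaving out control replicate 3 made the difference -0.89 log2, and leaving out RNAi replicate 3 made it -0.09 log2.

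The nhr-40 signal was 7.66, 7.61 and 7.66 log2 in the RNAi-labelled arrays and 7.97, 7.82 and 7.88 log2 in the control arrays. The groups did not overlap, and every control array was above every RNAi-labelled one. The difference was -0.25 log2 (SE 0.07), 1.19-fold lower, with the smallest unadjusted limma p of the receptors, 0.012, and an adjusted p of 0.993. With the replicate block the limma p was 0.0227 unadjusted and 0.736 adjusted. The second probe set of nhr-40, at a mean of 6.08 log2, differed by -0.02 log2.

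For nhr-46 the signal was 9.05, 8.55 and 9.03 log2 in the RNAi-labelled arrays and 9.15, 9.04 and 9.30 log2 in the control arrays. The low array was RNAi replicate 2, and the groups overlapped. The difference was -0.28 log2 (SE 0.15), and the same-number pairs 1, 2 and 3 gave -0.10, -0.48 and -0.27 log2. With the replicate block the limma p was 0.0284 unadjusted and 0.773 adjusted. The second probe set of the gene differed by 0.02 log2. The nhr-42 signal was also low in RNAi replicate 2. It was 6.39, 5.83 and 6.35 log2 in the RNAi-labelled arrays and 6.38, 6.48 and 6.39 log2 in the control arrays. Its difference was -0.23 log2 (SE 0.15). Without RNAi replicate 2 the differences were -0.12 log2 for nhr-46 and -0.05 log2 for nhr-42. Pharyngeal muscle markers were also low in RNAi replicate 2, where the mean of 4 genes was 7.72 log2, against 8.72 and 8.79 log2 in the other RNAi-labelled arrays and 8.52 to 8.89 log2 in the control arrays. All 4 of them were above the level, with means between 7.92 and 9.74 log2, and their part in these differences was not tested.

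The remaining pair were nhr-63 and nhr-172. The nhr-63 signal was 4.90, 5.23 and 5.24 log2 in the RNAi-labelled arrays and 4.88, 5.28 and 5.90 log2 in the control arrays. Its difference of -0.23 log2 (SE 0.25) came from control replicate 3 and was 0.045 log2 without that array. The nhr-172 signal was 4.78, 4.76 and 4.93 log2 in the RNAi-labelled arrays and 5.03, 5.10 and 4.96 log2 in the control arrays, with no overlap, close to the chemoreceptor level. Its difference was -0.21 log2 (SE 0.08), with a limma adjusted p of 0.993 and 0.0415 before adjustment.

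The 6 most positive differences among receptors above the level were smaller. They belonged to nhr-137 (0.22 log2, SE 0.16), nhr-47 (0.22, SE 0.12), nhr-65 (0.21, SE 0.16), nhr-124 (0.19, SE 0.11), nhr-5 (0.17, SE 0.08) and nhr-98 (0.16, SE 0.14), and each had a limma adjusted p of 0.993. With 1 array left out the differences ran from 0.08 to 0.38 log2 for nhr-137, 0.13 to 0.31 for nhr-47, 0.12 to 0.37 for nhr-65, 0.12 to 0.28 for nhr-124, 0.11 to 0.21 for nhr-5 and 0.08 to 0.28 for nhr-98. In 1 of them the groups did not overlap. This was nhr-5, at 6.67, 6.68 and 6.60 log2 in the RNAi-labelled arrays and 6.58, 6.49 and 6.38 log2 in the control arrays. For nhr-137 the signal was 6.17, 6.07 and 6.38 log2 in the RNAi-labelled arrays and 5.95, 5.71 and 6.30 log2 in the control arrays, higher in 3 of 3 pairs with overlapping groups. The second probe set of nhr-47, at 3.77 log2, differed by -0.21 log2.

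Of the 6 receptors with an unadjusted p under 0.05, 3 were under the level in all 6 arrays and are too dim for a fold change to be read. These were nhr-9 (0.27 log2), nhr-266 (0.20 log2), annotated as a pseudogene, and nhr-274 (-0.26 log2). The others were nhr-40, nhr-172 and nhr-129. The nhr-129 signal was 5.92, 5.79 and 5.73 log2 in the RNAi-labelled arrays and 5.94, 6.07 and 6.02 log2 in the control arrays, and its groups did not overlap.

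In the role groups the differences were small, and their counts of higher genes stand beside 55.7% of all genes. Of 9 fat and energy receptors 6 were higher and 3 lower (median 0.02 log2). Their most negative value among genes above the level was that of nhr-66, with 7.26, 7.39 and 7.50 log2 in the RNAi-labelled arrays and 7.51, 7.55 and 7.65 log2 in the control arrays, which did not overlap (-0.19 log2, SE 0.09, limma adjusted p = 0.993). The second probe set of nhr-66, at 7.08 log2, differed by -0.28 log2. Propionate and vitamin B12 receptors were higher in 1 and lower in 2 of 3 genes (median -0.02 log2). The xenobiotic, iron, hypoxia and osmotic group was higher in 4 and lower in 2 of 6 (median 0.01 log2), and the conserved or developmental group in 4 and 3 of 7 (median 0.01 log2).

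Genes that work with these receptors were set beside them. Of 4 measured cofactors 0 passed and 3 were lower, among them din-1, the corepressor of the receptor DAF-12, with 7.01, 6.81 and 6.63 log2 in the RNAi-labelled arrays and 7.45, 7.31 and 6.91 log2 in the control arrays (-0.41 log2, SE 0.16, limma adjusted p = 0.993). Of 5 nuclear receptors with other names 0 passed, and daf-12, the dafachronic acid receptor, differed by -0.01 log2 at a mean of 9.87 log2. Of 7 genes of dafachronic acid synthesis and sterol transport, 5 were lower and 0 passed. Among the lower ones was strm-1, whose enzyme limits dafachronic acid. The largest of these differences was that of daf-9, the last enzyme of the synthesis, with 6.80, 6.41 and 6.26 log2 in the RNAi-labelled arrays and 8.02, 7.30 and 6.38 log2 in the control arrays. The groups overlapped, and the difference was -0.75 log2 (SE 0.39, limma adjusted p = 0.993, and 0.54 with the replicate block). Of the receptors left out here, 5 were measured. By the brightest probe set of each all 5 were lower and 0 passed, while the dimmer probe set of nhr-23 was higher by 2.72 log2, as given above. Beside the counts of lower genes in these lists stand 44.3% of all genes that were lower. Before adjustment the limma p was under 0.05 for din-1 among the cofactors, for hsd-1 (0.24 log2) and ncr-1 (-0.22 log2) among the sterol genes, for nhr-23 among the receptors left out and for 0 of the receptors with other names. It was under 0.05 for 3.69% of all probe sets. With the replicate block the unadjusted limma p was under 0.05 for din-1 (0.00312) and gei-8 (0.0193) among the cofactors. It was so for the brightest probe set of nhr-23 (0.00344) and for 5 of the 7 sterol genes, against 5.96% of all probe sets. Of these sterol genes daf-9 (0.00707), strm-1 (0.00754) and ncr-1 (0.0387) were lower in 3 of 3 pairs, as were 10.7% of all genes. The others were dhs-16 (0.0227) and hsd-1 (0.042), of which hsd-1 was higher. By the probe sets given, none of these genes passed after adjustment.

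The replicate numbers of the titles were tested next. In a limma fit with group and replicate number, 5 of 249 receptors (2.01%) had an adjusted p under 0.05 for replicate number, against 2.24% of all 22548 probe sets, so the share among the receptors was near that of the array as a whole. The 5 were nhr-91, nhr-101, nhr-68, nhr-115 and nhr-99. At an unadjusted p under 0.05 there were 41 receptors (16.5%), against 12.4%. The contrast given for each is of 1 number against the mean of the other numbers, over both groups.

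**Figure D3:**
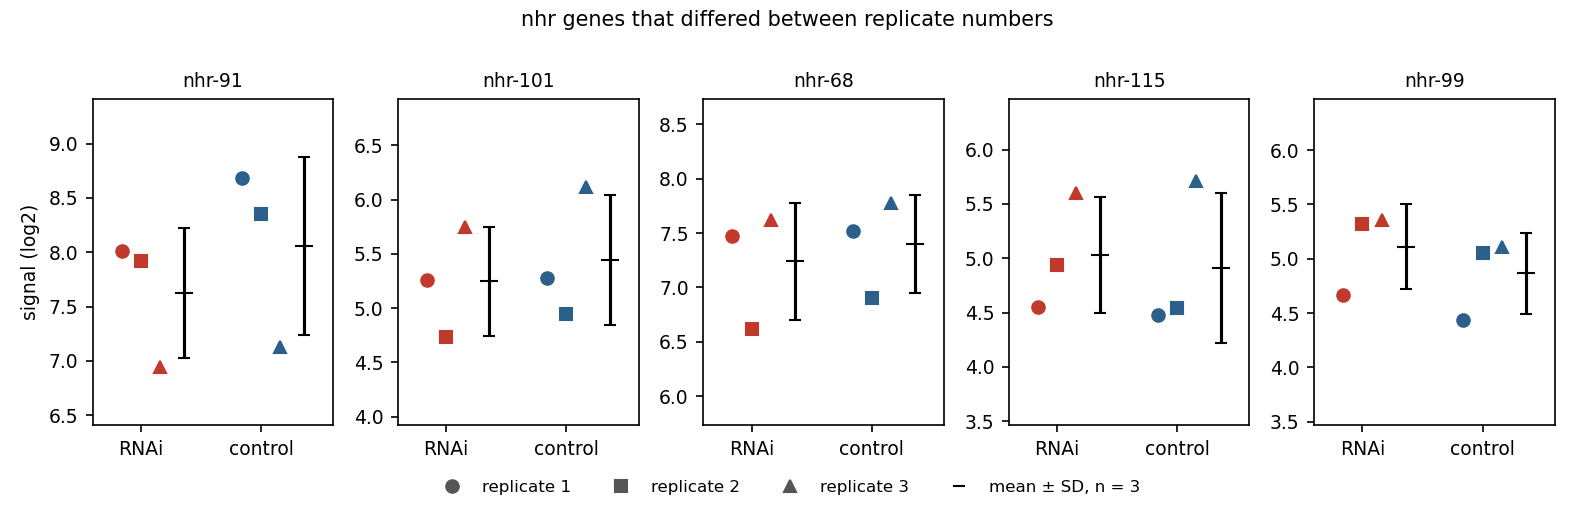
Log2 signal of the 5 receptors that differed with replicate number, with RNAi-labelled arrays in red on the left of each panel and control arrays in blue on the right; the symbol gives the replicate number and the bars are mean ± SD (n = 3). In nhr-91 both triangles (replicate 3, 6.94 and 7.13) lie under all other arrays, and in nhr-68 both squares (replicate 2, 6.62 and 6.90) do.

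In nhr-91, whose values stand above, both arrays of replicate 3 were low, at 6.94 and 7.13 log2, against 7.92 to 8.69 log2 in the other 4. Replicate 3 was 2.31-fold lower than the other numbers (log2 difference -1.21, limma contrast adjusted p = 0.00453, F test adjusted p = 0.0125). The difference between nhr-23 RNAi and control for the same gene was -0.43 log2. Markers of the epidermis were read in the same arrays. Their mean over 6 genes was 8.15, 8.36 and 7.60 log2 in replicates 1, 2 and 3 of the RNAi-labelled arrays and 8.53, 8.39 and 8.09 log2 in the control arrays. Of the 6, 4 were lower in replicate 3, where 53.1% of all genes were lower, and 1 passed, where 2.24% of all probe sets did. This was dpy-7, a cuticle collagen gene (-1.87 log2, limma F test adjusted p = 0.00681), which still passed with each single array left out but had an adjusted p of 0.172 with no group term and 0.892 without both replicate 3 arrays. The regulators elt-1, elt-3 and lin-26, at -0.05, 0.24 and -0.28 log2, and the collagen genes rol-6 and bli-1, at -1.16 and 0.04 log2, did not pass. The part of epidermal signal in the nhr-91 difference was not tested.

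In nhr-115 replicate 3 was high. The signal was 4.55, 4.94 and 5.60 log2 in the RNAi-labelled arrays and 4.48, 4.54 and 5.71 log2 in the control arrays, and only 3 of these 6 values were above the chemoreceptor level. The signal of replicate 3 was 1.03 log2 above the other numbers (limma F test adjusted p = 0.0222), and no fold is read from it. In nhr-101 the signal was 5.26, 4.74 and 5.74 log2 in the RNAi-labelled arrays and 5.28, 4.95 and 6.11 log2 in the control arrays. Replicate 3 was the highest and replicate 2 the lowest in both groups, at 0.87 and -0.76 log2 from the other numbers (limma F test adjusted p = 0.0182). The contrast of replicate 3 passed (limma adjusted p = 0.00883) and that of replicate 2 did not (0.135).

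In nhr-68 replicate 2 was low. The signal was 7.48, 6.62 and 7.62 log2 in the RNAi-labelled arrays and 7.52, 6.90 and 7.78 log2 in the control arrays. Replicate 2 was 1.79-fold lower than the other numbers (-0.84 log2). The F test over all numbers passed (limma adjusted p = 0.0189). The contrast of replicate 2 alone did not (limma adjusted p = 0.105), while that of replicate 3 did (0.57 log2, 0.0283). In nhr-99 replicate 1 was low, at 4.66, 5.32 and 5.35 log2 in the RNAi-labelled arrays and 4.44, 5.05 and 5.11 log2 in the control arrays. Its signal in replicate 1 differed by -0.66 log2 (limma F test adjusted p = 0.0352, contrast adjusted p = 0.0387), and control replicate 1 was under the level.

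These calls depended on single arrays. Without control replicate 1, 0 of 249 passed (79 probe sets of the array did, and 1719 at an unadjusted p under 0.05), and without RNAi replicate 1 only nhr-91 did (limma F test adjusted p = 0.0415). Without control replicate 3 nhr-91 and nhr-68 passed, with adjusted p of 0.0399 and 0.0387. Without control replicate 2, 10 receptors and 1304 of all 22548 probe sets passed, and without RNAi replicate 3, 8 receptors and 724 probe sets did. Without both replicate 3 arrays 0 passed, and the adjusted p of the 5 then ran from 0.136 (nhr-68) to 0.842 (nhr-115). With no group term nhr-91 (limma F test adjusted p = 0.0858) and nhr-99 (0.121) did not pass, while nhr-101, nhr-68 and nhr-115 did.

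Of the 3 numbers, replicate 3 stood apart most often. In the contrast of replicate 3 with the others, 10 receptors passed (4.02%), 9 higher and 1 lower, against 3.77% of all probe sets, 1.87% higher and 1.89% lower. Beside nhr-91, nhr-68, nhr-101 and nhr-115 these were nhr-61 (0.63 log2, limma adjusted p = 0.0245), nhr-50 (0.61, 0.0366), nhr-90 (0.50, 0.0391), nhr-102 (0.50, 0.0403), nhr-202 (0.45, 0.0468) and nhr-53 (0.49, 0.0476). The nhr-61 signal was 5.62, 5.55 and 6.12 log2 in the RNAi-labelled arrays and 5.51, 5.69 and 6.32 log2 in the control arrays, so both replicate 3 arrays were above the other 4. The nhr-53 signal was under the chemoreceptor level in all 6 arrays. The probe sets of nhr-61, nhr-50, nhr-102 and nhr-53 are of the _s_at or _x_at type, which may read more than 1 transcript. Without probe sets of these types 7 receptors passed, of which 6 were among the 10. With control replicate 1 left out 1 receptor passed and with RNAi replicate 1 left out 2, all among the 10. With control replicate 3 left out 3 passed, of which 2 were among the 10. In the contrasts of replicates 1 and 2, 1 and 0 receptors passed, against 0.723% and 0.0177% of all probe sets.

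The direction of these differences over all receptors above the level was uneven. Replicate 3 was higher than the other numbers in 75 of 108 (69.4%), against 50.9% of all genes above the level, with medians of 0.12 and 0.004 log2. Replicate 2 was lower in 78 of 108 (72.2%), against 52.7%, with medians of -0.07 and -0.01 log2. Replicate 1 was lower in 71 of 108 (65.7%), against 47.1%, with medians of -0.05 and 0.01 log2. Genes are not independent replicates and the contrasts share arrays, so these shares are a description of 6 arrays. In the replicate 3 arrays the chemoreceptor level was 4.63 log2 in RNAi and 4.54 log2 in control, against 4.61 to 4.67 log2 in the other 4.

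**Figure D4:**
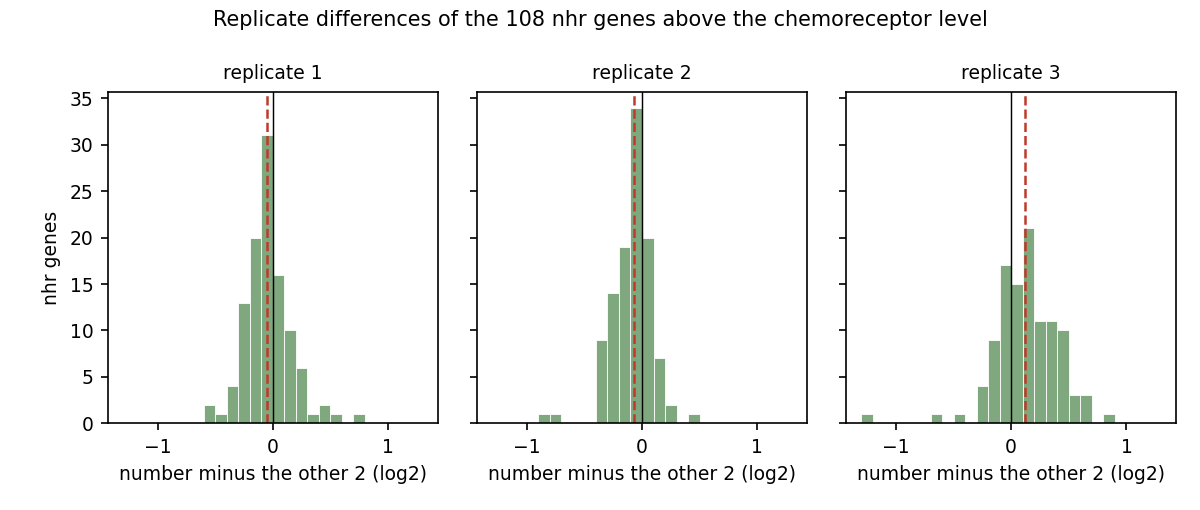
Histograms of the log2 difference of each replicate number from the mean of the other 2, for the 108 receptors above the chemoreceptor level in 6 arrays; the y axis counts genes in bins of 0.1 log2, the black line marks 0 and the red dashed line the median. The medians are -0.05, -0.07 and 0.12 log2 for replicates 1, 2 and 3, and the lone bar at the far left of the replicate 3 panel is nhr-91.

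Receptors of the vitamin B12 and propionate pathway could be set beside its enzymes. The propionate shunt breaks down propionate without vitamin B12, and its first gene, acdh-1, encodes an acyl-CoA dehydrogenase. The acdh-1 signal was 10.21, 8.02 and 10.36 log2 in the RNAi-labelled arrays and 10.51, 8.82 and 10.56 log2 in the control arrays. Both replicate 2 arrays were low, as for nhr-68, by -1.99 log2 from the other numbers (limma F test adjusted p = 0.00589). The gene hphd-1, for the shunt enzyme that oxidizes 3-hydroxypropionate, gave 9.86, 8.72 and 10.19 log2 in the RNAi-labelled arrays and 9.89, 9.45 and 10.38 log2 in the control arrays, and replicate 2 was the lowest in each group (-0.99 log2, limma F test adjusted p = 0.0417). Its contrast of replicate 2 did not pass (limma adjusted p = 0.153), while that of replicate 3 did (0.81 log2, 0.0389). The acdh-1 gene still passed with each single array left out, with a highest limma F test adjusted p of 0.0487 without control replicate 1. The hphd-1 call was lost with no group term (limma F test adjusted p = 0.0989), with replicate 1 of RNAi (0.107) or control (0.122) left out, with replicate 3 of RNAi (0.061) or control (0.0688) left out, and without both replicate 3 arrays (0.28).

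Over both groups all 5 shunt genes were lower in replicate 2 than in the other numbers, where 48.8% of all genes were, and 2 of 5 passed, where 2.24% of all probe sets did. The enoyl-CoA hydratase gene ech-6 (-0.75 log2), the hydrolase gene hach-1 (-0.41 log2) and alh-8 (-0.14 log2), for the last dehydrogenase, had limma F test adjusted p of 0.0581, 0.149 and 0.81. In alh-8 replicate 2 was the lowest only in the control arrays, at 10.60, 10.36 and 10.82 log2. It was the highest in the RNAi-labelled arrays, at 10.51, 10.59 and 10.55 log2. The receptor nhr-114 was also lowest in replicate 2, at 7.37, 6.75 and 7.05 log2 in the RNAi-labelled arrays and 7.33, 6.84 and 6.97 log2 in the control arrays, and did not pass (-0.38 log2, limma F test adjusted p = 0.108). The receptor nhr-10 was highest in replicate 3, at 7.73, 7.76 and 8.12 log2 in the RNAi-labelled arrays and 7.63, 7.73 and 8.30 log2 in the control arrays (0.49 log2, limma contrast adjusted p = 0.0502). Its second probe set differed by 0.14 log2 in replicate 3. Markers of the intestine, where the shunt and these receptors act, had means of 8.69, 8.81 and 8.75 log2 in the RNAi-labelled arrays and 8.68, 8.79 and 8.73 log2 in the control arrays. Of the 8, 6 were higher and 2 lower in replicate 2. Pharyngeal muscle markers were low in RNAi replicate 2 but not in control replicate 2 (7.72 and 8.89 log2). The part of either tissue in the replicate 2 differences was not tested.

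**Figure D5:**
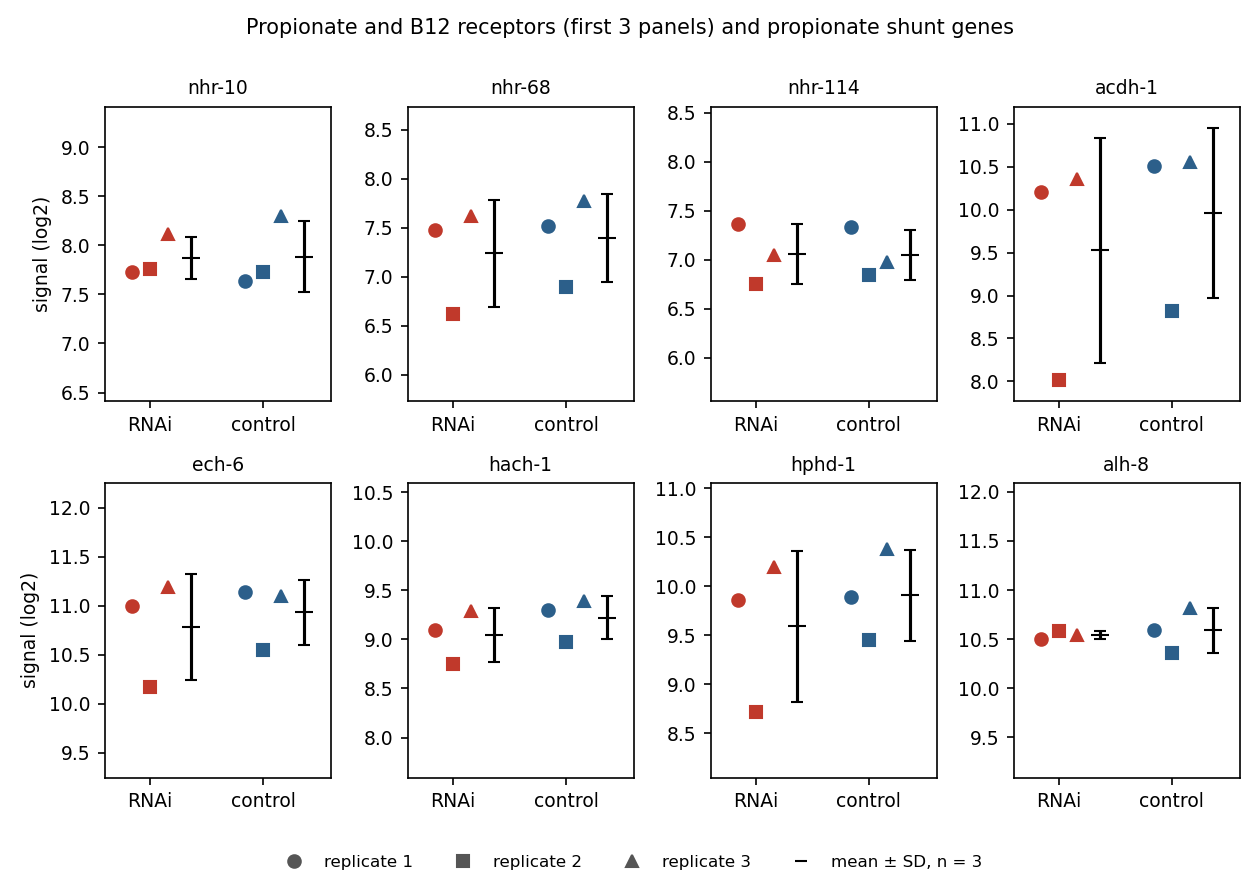
Log2 signal of 3 receptors of propionate and vitamin B12 metabolism and 5 propionate shunt genes, with RNAi-labelled arrays in red on the left of each panel and control arrays in blue on the right; the symbol gives the replicate number and the bars are mean ± SD (n = 3). The squares (replicate 2) lie under the other arrays of their group in nhr-68, nhr-114, acdh-1, ech-6, hach-1 and hphd-1, by -1.99 log2 in acdh-1.

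Of 8 measured genes regulated through NHR-49, 3 passed for replicate number, in different directions, where 2.24% of all probe sets did. The receptor gene nhr-49 itself did not pass (limma F test adjusted p = 0.978, with contrasts of -0.05, 0.01 and 0.04 log2 for replicates 1, 2 and 3). The stearoyl-CoA desaturase gene fat-7 was low in replicate 3, at 6.71, 7.20 and 5.69 log2 in the RNAi-labelled arrays and 6.79, 7.28 and 5.22 log2 in the control arrays (-1.54 log2, limma F test adjusted p = 0.00819). The acyl-CoA synthetase gene acs-2 was high in replicate 3 and low in replicate 1, at 6.09, 6.76 and 7.13 log2 in the RNAi-labelled arrays and 6.55, 6.88 and 7.51 log2 in the control arrays (0.75 and -0.75 log2, limma F test adjusted p = 0.0258). The gene hacd-1, for a hydroxyacyl-CoA dehydrogenase, was high in replicate 3 by 0.75 log2 (limma F test adjusted p = 0.0189). The near relative of fat-7, fat-6, did not pass (-0.23 log2, limma F test adjusted p = 0.587). With control replicate 1 left out none of the 3 passed (limma F test adjusted p = 0.0581 for fat-7, 0.174 for acs-2 and 0.184 for hacd-1). With RNAi replicate 1 left out acs-2 (0.21) and hacd-1 (0.159) did not pass, nor did they with control replicate 3 left out (0.0796 and 0.0711). With no group term acs-2 did not (0.109), and without both replicate 3 arrays the 3 ran from 0.283 to 0.46.

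In dafachronic acid synthesis and sterol transport, 1 of 7 genes passed for replicate number, where 2.24% of all probe sets did. This was strm-1, for a sterol methyltransferase that limits dafachronic acid, with 6.99, 6.35 and 6.07 log2 in the RNAi-labelled arrays and 7.84, 6.93 and 6.21 log2 in the control arrays. It was high in replicate 1 and low in replicate 3 (1.03 and -0.89 log2, limma F test adjusted p = 0.0339). The call was lost with no group term (0.187), with RNAi replicate 1 (0.0937) or control replicate 1 (0.279) left out and without both replicate 3 arrays (0.117). In the contrast of replicate 3 with the others 2 of the 7 genes passed as lower, where 1.89% of all probe sets did. Beside strm-1 this was dhs-16 (-0.80 log2, limma contrast adjusted p = 0.0497, F test adjusted p = 0.0897). Of the 5 receptors left out here that were measured 0 passed for replicate number, of the 4 cofactors 0 and of the 5 receptors with other names 0.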

How the data were processed

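The deposited table gives, for each probe set, a log2 value made by the authors in each of 6 arrays, 3 for nhr-23 RNAi and 3 for control. The submitters' processing notes name MAS5, RMA and Partek, but neither their versions nor the 1 that made the values, so the background correction and normalization are unknown, and low signals may be compressed by an unknown amount. The array's build is not stated in the labels. The number of arrays limits the precision. A growth protocol in the labels that speaks of flies was not used.

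Of 22625 probe sets, 77 array controls were left out and 22548 were tested, without filtering or renormalizing. In the platform annotation 20766 of them have 1 symbol and 887 have several, and 895 are not listed. Symbols of 20701 were taken from the WBcel235 gene table through the Entrez identifier and 65 kept the older symbol. A further 14 probe sets that carry an nhr symbol among several were not used. Groups were taken from the titles and compared by the 2-sided moderated test of limma 3.58.1 (R 4.3.3), fitted with no term but group. P-values were adjusted by Benjamini-Hochberg over all probe sets tested, at a threshold of 0.05. Replicate number was tested by limma's moderated F test in a fit with group and number. The fits were also run on simulated arrays, with noise drawn independently for each array and with changes larger than most seen here. That run cannot show how the fits behave with deviations shared between arrays or with small differences.

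Arrays with the same replicate number deviated from their group means together, with correlations of 0.58, 0.167 and 0.573 for replicates 1, 2 and 3 over probe sets. The numbers were therefore taken to pair the arrays in the same-number pairs and in the replicate block. The main fit for nhr-23 RNAi did not use this pairing. Standard errors of RNAi differences come from that fit unless the block is named. The pairing rests on the values and not on the labels, and control replicate 2 correlated more with RNAi replicate 1 (0.233). Alternatives were a replicate block, no group term, a filter on low values, quantile normalization, an intensity trend, other probe set choices, other levels and leaving out arrays. Leaving out both replicate 3 arrays was chosen after seeing the data.

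The text names all members of 4 role groups, the 15 brightest receptors, the 6 most positive and 6 most negative differences above the chemoreceptor level, the 10 receptors with the smallest p for replicate number, and pathway genes that passed or, from a list with none, had the smallest p. The genes nhr-9, nhr-129, nhr-266, nhr-274, nhr-53, nhr-202 and nhr-144, other pathway genes and the gene runs were named after their values were seen. The members and lists were chosen with earlier results of these data known.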

Additional observations from a re-analysis of the deposited data

How the results depend on the processing

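With the replicate block 0 receptors and 2 of 22548 probe sets passed for nhr-23 RNAi against control, and the block changed no call of a receptor. Over the other settings 0 receptors passed. Of the 12 named differences, 71 of 72 values without 1 array kept their direction. The exception was nhr-63, from -0.47 to 0.045 log2, positive without control replicate 3, where its high array is left out. Under other settings 83 of 83 values did. Of these settings only quantile normalization and leaving out both replicate 3 arrays can change a difference, so this count is no measure of stability. The 12 were also chosen for their size in these same arrays. For replicate number, 3 receptors and 186 probe sets passed with no group term. Without 1 array 0 to 10 receptors and 79 to 1304 probe sets did, and the replicate 3 contrast gave 1 to 13 receptors. Without both replicate 3 arrays 0 receptors and 40 probe sets passed, with fewer arrays. The number of receptors above the level was 70 with the 99th percentile of chemoreceptors, 46 with the 95th percentile of major sperm protein genes, 108 to 110 without 1 array and 83 to 127 under the remaining settings. The cause of the other moves was not tested. With 3 arrays a group and no detection calls, small differences of dim receptors could not be resolved.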
